A study of Mus musculus with 14 samples.

Results

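Hippocampal RNA of mice labelled as lacking GPR30 in neurons was compared with that of mice labelled as keeping it there. The 14 samples of the series were placed on a side by genotype alone, 7 on each side, and all 14 of 14 were used. The side without neuronal GPR30 held 3 Δ3102 samples, in which the receptor gene is disrupted in all cells by CRISPR/Cas9, and 4 NG-KO samples, which are GPR30 fl/fl mice with Cre recombinase driven by the neuron-specific enolase (NSE) promoter. The side with neuronal GPR30 held 3 WT samples and 4 AG-KO samples, which are GPR30 fl/fl mice with Cre driven by the mouse GFAP promoter, active in astrocytes. All were female, on C57BL/6J, 10 weeks old, and untreated as far as the labels state. Poly(A) RNA of the whole hippocampus was sequenced, and each gene has a deposited read count and an FPKM value (fragments scaled by exon length and sequencing depth). The log2 fold changes below give each genotype the same weight, so each is the mean of the difference between Δ3102 and WT and the difference between NG-KO and AG-KO. These pairs share no library. NG-KO and AG-KO differ in the Cre line as well as in the cells that lose GPR30, which cannot be told apart here, and floxed or Cre-only controls were not analysed here.

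GPR30, encoded by Gper1, is a G protein-coupled receptor of cell membranes that binds estradiol. It couples to adenylyl cyclase, calcium and ERK signaling and acts faster than the nuclear estrogen receptors. In the hippocampus it is found on neurons and on astrocytes and has been linked to spine density and memory. The purpose of a neuronal knockout beside an astrocytic one is to ask in which of these cells the receptor matters.

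The libraries held 44527024 to 62669865 counts on the side with and 48235215 to 57805943 on the side without neuronal GPR30. Mitochondrial transcripts took 3.69% to 7.17% and 4.40% to 5.87% of the counts. The Y-linked genes Ddx3y, Uty, Eif2s3y and Kdm5d had at most 0.131 FPKM in any library. Genes of liver, skeletal muscle and testis varied widely within genotypes on both sides. Their lists summed to 26 to 750, 40 to 841 and 12 to 247 FPKM with neuronal GPR30 and to 12 to 2125, 70 to 949 and 12 to 243 FPKM without it, and no member of the 3 lists had an unadjusted p under 0.05. In whole tissue, fewer cells of a type and less RNA per cell cannot be told apart.

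Gper1 (ENSMUSG00000053647, GRCm38 chr5:139423151-139427800, plus strand) was read first, since it checks the labels. Its level was 0.797, 1.15 and 3.05 FPKM in the WT libraries and 0.0686, 0.145 and 0.0124 FPKM in the Δ3102 libraries, so these ranges lie apart. It was 0.54, 1.38, 0.891 and 1.22 FPKM in AG-KO and 1.10, 1.41, 0.975 and 1.11 FPKM in NG-KO, where the ranges overlap. The log2 difference was -4.36 ± 0.71 (SE) between Δ3102 and WT and 0.17 ± 0.52 between NG-KO and AG-KO. The neuronal contrast was -2.09 ± 0.43, which did not pass adjustment (edgeR adjusted p = 0.21, exact permutation p = 0.0757). The absence of GPR30 from neurons is thus read from the label in NG-KO, not from tissue Gper1, and this holds for every result below. Among the 29 tested genes that start within 1 Mb of Gper1 on chromosome 5, none passed adjustment, 1 was higher and 3 were lower at an unadjusted p under 0.05, and the median log2 fold change was -0.04. The 3 lower genes were Gper1 itself, Mad1l1 and Snx8. The higher one was Gpr146, another receptor gene, whose 3 WT values were 0.0462, 0.517 and 0.935 FPKM while the other 11 libraries lay between 1.57 and 3.27 FPKM.

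Eno2, which encodes neuron-specific enolase and lends its promoter to the NG-KO line, had 140, 136 and 143 FPKM in WT and 148, 143 and 136 FPKM in Δ3102. It had 159, 171, 141 and 144 FPKM in AG-KO and 177, 181, 173 and 184 FPKM in NG-KO, all 4 above every other library. Its contrast was 0.12 ± 0.04 (adjusted p = 0.49, exact permutation p = 0.0129). Gfap, the intermediate filament gene of astrocytes and the promoter source of the AG-KO line, had 102, 120 and 97.9 FPKM in WT, 84.9, 86.4 and 93.8 in Δ3102, 119, 97.8, 121 and 101 in AG-KO and 94.6, 78.7, 89.7 and 61.1 in NG-KO. Every value without neuronal GPR30 lay below every value with it. The log2 fold change of Gfap was -0.36 ± 0.10, with an adjusted p of 0.36 and an exact permutation p of 0.00143, the smallest that 1400 exchanges of labels within the pairs can give.

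Of 18059 tested genes, 8 (0.0443%) passed an adjusted p under 0.05 in the neuronal contrast by edgeR's quasi-likelihood test, 4 higher (0.0221%) and 4 lower (0.0221%) without neuronal GPR30. DESeq2 called 33 higher (0.183%) and 93 lower (0.516%), the 8 among them. Taken apart, 2 genes (0.0111%) passed in Δ3102 against WT, 20 (0.111%) in NG-KO against AG-KO and 14 (0.0775%) in the test of the difference between these pairs. Of the 8, 7 also differed between the pairs at an adjusted p under 0.05. By this test their size was not the same in Δ3102 against WT and in NG-KO against AG-KO. Over 21 alternative fits, Gm13394, Gapdh-ps15 and Alad kept this difference in all. It was lost in 1 for Myh10, in 12 for Edil3 and in 17 for Invs, and in 7 of 20 for Gm26826. By the labels, the test of this difference sets Δ3102 and AG-KO, which lack GPR30 in astrocytes, against WT and NG-KO, which keep it there. The gene left over, Pisd-ps1, differed in the same direction in both pairs, and it was also the single gene called when the 7 libraries of each side were fitted as 1 mean or with an added term for the Cre lines. At an unadjusted p under 0.05, 647 genes (3.58%) were higher and 821 (4.55%) were lower. The median log2 fold change of all tested genes was 0.01.

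**Figure D1:**
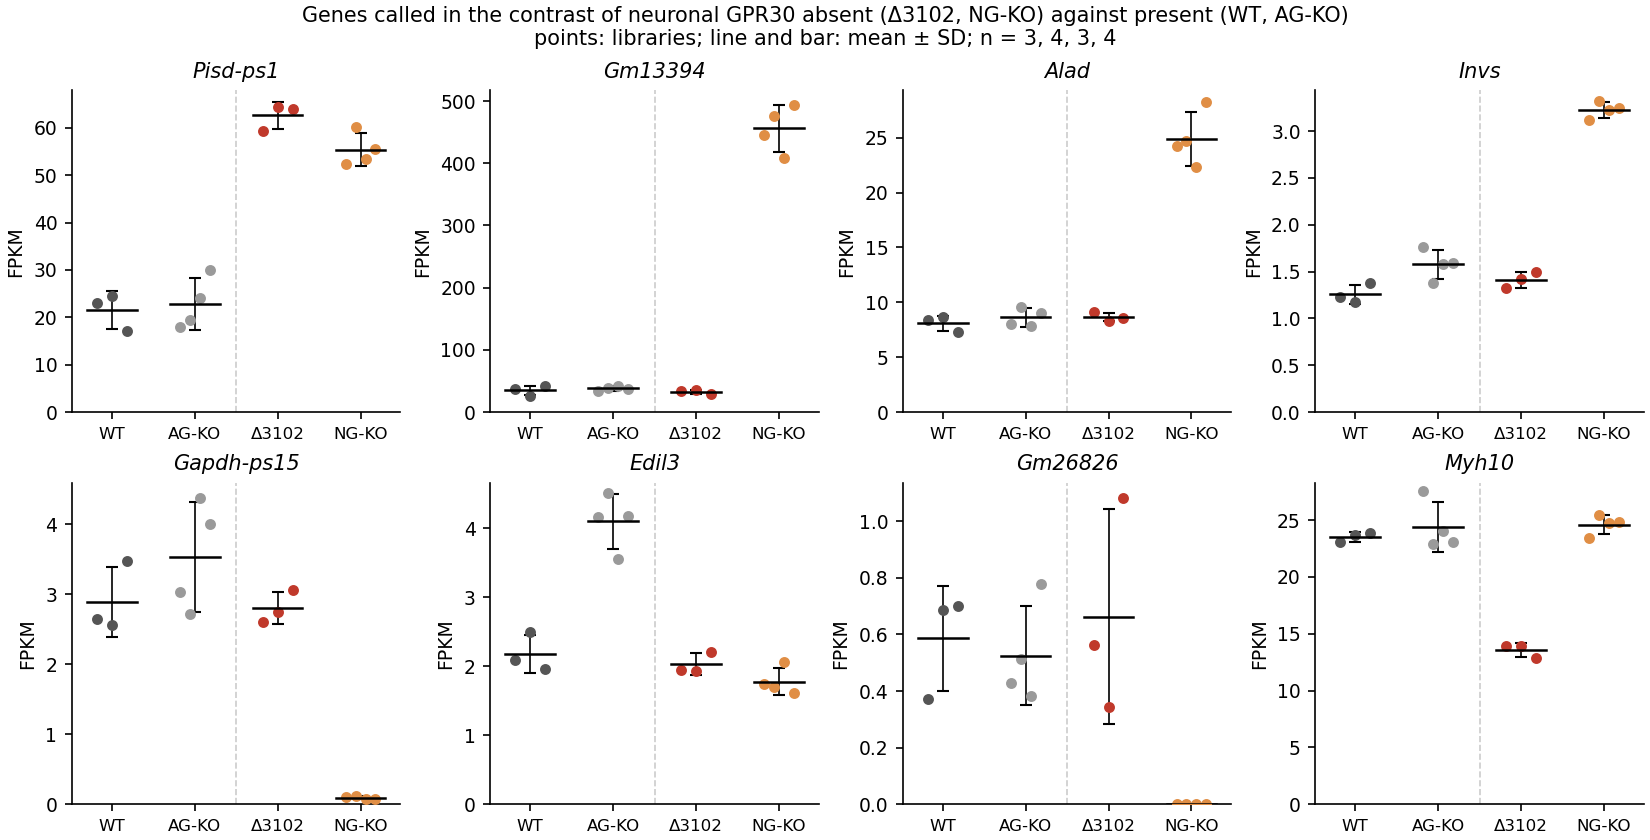
FPKM of the 8 called genes in each library, 1 panel a gene, with genotypes on the x axis and FPKM from 0 on the y axis. Points are libraries, lines and bars are means ± SD of 3, 4, 3 and 4 libraries, and the dashed line parts the sides with (left) and without (right) neuronal GPR30. In Pisd-ps1 both genotypes on the right lie above both on the left, while in the other 7 panels 1 genotype stands apart from the other 3.

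Pisd-ps1 (ENSMUSG00000082286, chr11:3125904-3130146, plus strand) is a transcribed copy of Pisd, the gene of the mitochondrial enzyme that makes phosphatidylethanolamine from phosphatidylserine. It is annotated as an unprocessed pseudogene, that is, a duplicated copy that kept its introns. A stretch within the Pisd coding sequence is shown because it is where the copies can be told apart. It runs from position 562 to 651 of the longest Pisd-ps1 transcript in GENCODE vM21, 5′ to 3′, with capitals at the bases that differ among the 3 models.
Pisd: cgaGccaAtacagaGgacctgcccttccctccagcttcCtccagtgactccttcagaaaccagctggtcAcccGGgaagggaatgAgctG
Pisd-ps1: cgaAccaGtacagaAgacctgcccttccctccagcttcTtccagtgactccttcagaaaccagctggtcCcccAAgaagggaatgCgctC
Pisd-ps2: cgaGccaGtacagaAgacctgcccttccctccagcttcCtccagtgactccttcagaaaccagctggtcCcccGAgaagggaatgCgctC

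In this window Pisd-ps1 differs from Pisd at 9 bases of 90 and Pisd-ps2 at 6. Over the ungapped part of the alignment Pisd-ps1 is 95.1% identical to Pisd and 96.7% to Pisd-ps2, so reads could be placed on more than 1 of these models.

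The level of Pisd-ps1 was 23, 24.5 and 17.1 FPKM in WT and 17.9, 19.4, 24.1 and 30.0 FPKM in AG-KO. It was 59.4, 64.5 and 64.0 FPKM in Δ3102 and 52.4, 60.1, 53.5 and 55.6 FPKM in NG-KO. The lowest value without neuronal GPR30 was above the highest with it. Pisd-ps1 rose by 1.40 ± 0.13 on the log2 scale (adjusted p = 0.00038, exact permutation p = 0.00143), by 1.54 ± 0.19 in Δ3102 against WT (adjusted p = 0.021) and by 1.25 ± 0.17 in NG-KO against AG-KO (adjusted p = 0.0077). The difference between the pairs was 0.29 ± 0.25 (adjusted p = 0.76).

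Pisd-ps2, a second copy on chromosome 17 named here after its values were seen, had 2.73, 3.26 and 3.52 FPKM in WT, 2.28, 3.90, 5.07 and 4.25 in AG-KO, 6.89, 5.85 and 8.00 in Δ3102 and 8.20, 6.49, 5.86 and 5.33 in NG-KO. Its sides did not overlap either, and the log2 fold change was 0.92 ± 0.18 (adjusted p = 0.18). Pisd itself had 7.27 to 13.4 FPKM across the 14 libraries, with a log2 fold change of 0.09 ± 0.12 (adjusted p = 0.91). Summed over the 4 models of the family, the summed level was 30.7 to 45.6 FPKM with and 70.9 to 82.9 FPKM without neuronal GPR30.

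Among the called genes, 2 are copies of Gapdh, the glycolytic enzyme that is often used as a reference transcript. Gm13394 (ENSMUSG00000083773, chr2:28933610-28934609, minus strand) and Gapdh-ps15 (ENSMUSG00000096438, chrY:38619783-38620784, plus strand) are processed pseudogenes, that is, intronless copies of the mRNA. Gm10284 on chromosome 8, another copy, missed the threshold (adjusted p = 0.051). Over 1000 bases, Gm13394 differs from the Gapdh transcript at 1 base, Gapdh-ps15 at 5 and Gm10284 at 7. The windows below hold the single difference of Gm13394 and 3 of those of Gapdh-ps15. They lie in the Gapdh coding sequence, are numbered from the first base of Gm13394, and have capitals where the 4 models differ. The first covers positions 306 to 386.
Gapdh: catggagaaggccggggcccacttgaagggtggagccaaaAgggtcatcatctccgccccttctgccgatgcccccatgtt
Gm13394: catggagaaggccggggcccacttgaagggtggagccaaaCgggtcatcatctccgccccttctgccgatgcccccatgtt
Gapdh-ps15: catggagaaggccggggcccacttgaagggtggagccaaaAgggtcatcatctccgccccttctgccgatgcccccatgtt
Gm10284: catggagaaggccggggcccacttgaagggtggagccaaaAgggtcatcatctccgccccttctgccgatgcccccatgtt

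The second covers positions 140 to 229.
Gapdh: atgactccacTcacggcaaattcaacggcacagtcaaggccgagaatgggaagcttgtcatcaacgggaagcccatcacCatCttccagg
Gm13394: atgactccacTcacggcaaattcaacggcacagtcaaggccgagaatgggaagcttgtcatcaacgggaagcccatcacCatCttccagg
Gapdh-ps15: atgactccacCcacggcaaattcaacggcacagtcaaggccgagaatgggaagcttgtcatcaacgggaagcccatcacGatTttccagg
Gm10284: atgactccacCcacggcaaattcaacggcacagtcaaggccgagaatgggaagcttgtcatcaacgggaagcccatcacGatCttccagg

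The single substitution of Gm13394 is A346C (Gapdh base first), at position 28934264 of chromosome 2. Gapdh-ps15 and Gm10284 lack it and share T63C, T150C, C219G and C591T, which Gm13394 lacks.

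Gm13394 had 26.5 to 41.4 FPKM in WT, 29.2 to 35.0 in Δ3102 and 33.8 to 42.6 in AG-KO, and 445, 476, 409 and 494 FPKM in NG-KO. Its rise was therefore that of 1 genotype. The log2 fold change was 3.55 ± 0.14 in NG-KO against AG-KO and -0.10 ± 0.15 in Δ3102 against WT, with a neuronal contrast of 1.73 ± 0.10 (adjusted p = 5.2e-06).

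Gapdh-ps15 had 2.64, 2.56 and 3.47 FPKM in WT, 2.61, 2.74 and 3.05 in Δ3102, 3.04, 2.73, 4.38 and 4.01 in AG-KO, and 0.102, 0.122, 0.0781 and 0.0669 in NG-KO. It fell by 5.14 on the log2 scale in NG-KO against AG-KO (SE 0.30) and gave -0.04 ± 0.28 in Δ3102 against WT, with a neuronal contrast of -2.59 ± 0.20 (adjusted p = 0.00011). Gm10284 fell in NG-KO against AG-KO too, with 0.52, 0.308, 0.667 and 0.447 FPKM in NG-KO, 14, 15.6, 4.23 and 3.67 FPKM in AG-KO and 12.5 to 18.5 FPKM in WT and Δ3102. Of all 65 near-identical models described below, NG-KO lay apart from the other 10 libraries in 4, above them in 1 (Gm13394) and below them in 3. The third of the lower ones, Gm2574, named after its values were seen, had 3.26 to 4.41 FPKM in NG-KO and 5.65 to 10.8 FPKM elsewhere, and did not pass adjustment in NG-KO against AG-KO (-1.02 ± 0.20, adjusted p = 0.09).

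The Gapdh model itself had 25 to 37.1 FPKM over all libraries, with a log2 fold change of 0.10 ± 0.09 (adjusted p = 0.82). It was one of 65 gene models at least 95% identical to Gm13394 over at least 900 bases, and several others had higher values, such as Gm5559 with 226 to 279 FPKM. The 65 models summed to 1542 to 1750 FPKM in NG-KO and to 1099 to 1372 FPKM in the other 10 libraries. Without Gm13394 the sums were 1113 to 1257 FPKM in NG-KO and 1065 to 1335 FPKM elsewhere, which overlap. Gapdh-ps15 is annotated on chromosome Y, while all mice were female and Ddx3y, Uty, Eif2s3y and Kdm5d had at most 0.131 FPKM. Its values are therefore given as those of a gene model, not as expression from chromosome Y. Which copy gave rise to the reads was not tested.

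**Figure D2:**
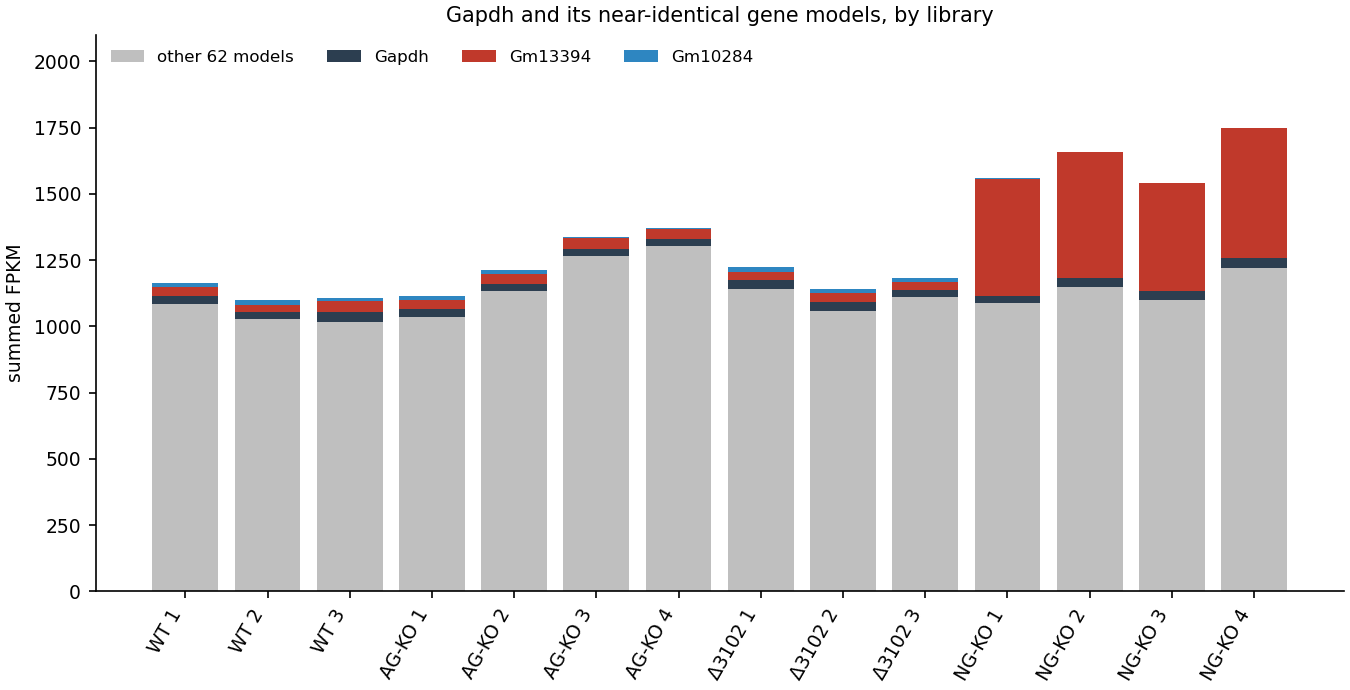
Summed FPKM of the 65 gene models near-identical to Gapdh in each library, as stacked bars from 0, with Gapdh, Gm13394 and Gm10284 drawn apart from the other models. The 4 NG-KO bars reach 1542 to 1750 FPKM against 1099 to 1372 FPKM in the rest, and without Gm13394 they would reach 1113 to 1257 FPKM.

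Alad and Invs lie on chromosome 4 and were high in NG-KO alone. Alad (ENSMUSG00000028393, chr4:62509169-62519894, minus strand) encodes an early enzyme of heme synthesis. It had 7.32 to 8.63 FPKM in WT, 8.31 to 9.10 in Δ3102, 7.80 to 9.61 in AG-KO and 24.3, 24.7, 22.3 and 28.3 in NG-KO. The log2 fold change was 1.51 ± 0.10 in NG-KO against AG-KO, 0.10 ± 0.12 in Δ3102 against WT and 0.80 ± 0.08 in the neuronal contrast (adjusted p = 0.0006). Its neighbor Hdhd3 (chr4:62499008-62503467), a phosphatase-like gene named after its values were seen, had 1.38 to 3.72 FPKM in the other genotypes and 7.63, 9.78, 6.97 and 11.3 FPKM in NG-KO. The adjusted p of Hdhd3 was 0.025 in NG-KO against AG-KO and 0.32 in the neuronal contrast.

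Invs (ENSMUSG00000028344, chr4:48279760-48396314, plus strand) encodes inversin, a protein of the primary cilium. It had 3.12, 3.33, 3.22 and 3.25 FPKM in NG-KO and 1.18 to 1.76 FPKM in the other 10 libraries. The neuronal contrast was 0.59 ± 0.07 (adjusted p = 0.0028), from 1.01 ± 0.09 in NG-KO against AG-KO and 0.17 ± 0.10 in Δ3102 against WT.

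Edil3 (ENSMUSG00000034488, chr13:88821472-89323223, plus strand), which encodes a secreted integrin ligand, was called lower because AG-KO was high. Its AG-KO values were 4.17, 4.52, 3.56 and 4.18 FPKM, and the 10 others lay between 1.61 and 2.49 FPKM. The neuronal contrast was -0.66 ± 0.08 (adjusted p = 0.0059). Edil3 is thus an example of a call that comes from the side with neuronal GPR30.

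Myh10 (ENSMUSG00000020900, chr11:68691559-68816632, plus strand), which encodes the heavy chain of nonmuscle myosin IIB, a motor of dendritic spines, was low in Δ3102 alone. It had 13.9, 13.9 and 12.9 FPKM there and 22.9 to 27.6 FPKM in the other 11 libraries. It fell by 0.79 on the log2 scale in Δ3102 against WT (SE 0.07, adjusted p = 0.00073) and gave -0.00 ± 0.06 in NG-KO against AG-KO. The neuronal contrast of -0.40 ± 0.05 (adjusted p = 0.0028) is the mean of these, and the exact permutation p was 0.0571.

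Gm26826 (ENSMUSG00000097635, chr6:122813619-122820614, minus strand) overlaps the start of Foxj2, a forkhead transcription factor gene on the other strand. It had 0 counts in all 4 NG-KO libraries and 27 to 82 counts in the other 10, which makes it at least 14.6-fold lower in NG-KO than in AG-KO, taking 3 counts per library as the floor (adjusted p = 0.028 in the neuronal contrast). This call was lost in 7 of 14 fits that left out 1 library, namely WT replicate 2 or 3, Δ3102 replicate 1 or 2, or AG-KO replicate 1, 3 or 4. Foxj2 had 6.25 to 7.91 FPKM in all libraries. The libraries were made with a strand-marking kit, but the strand setting of the counting is not given in the sources used here.

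**Figure D3:**
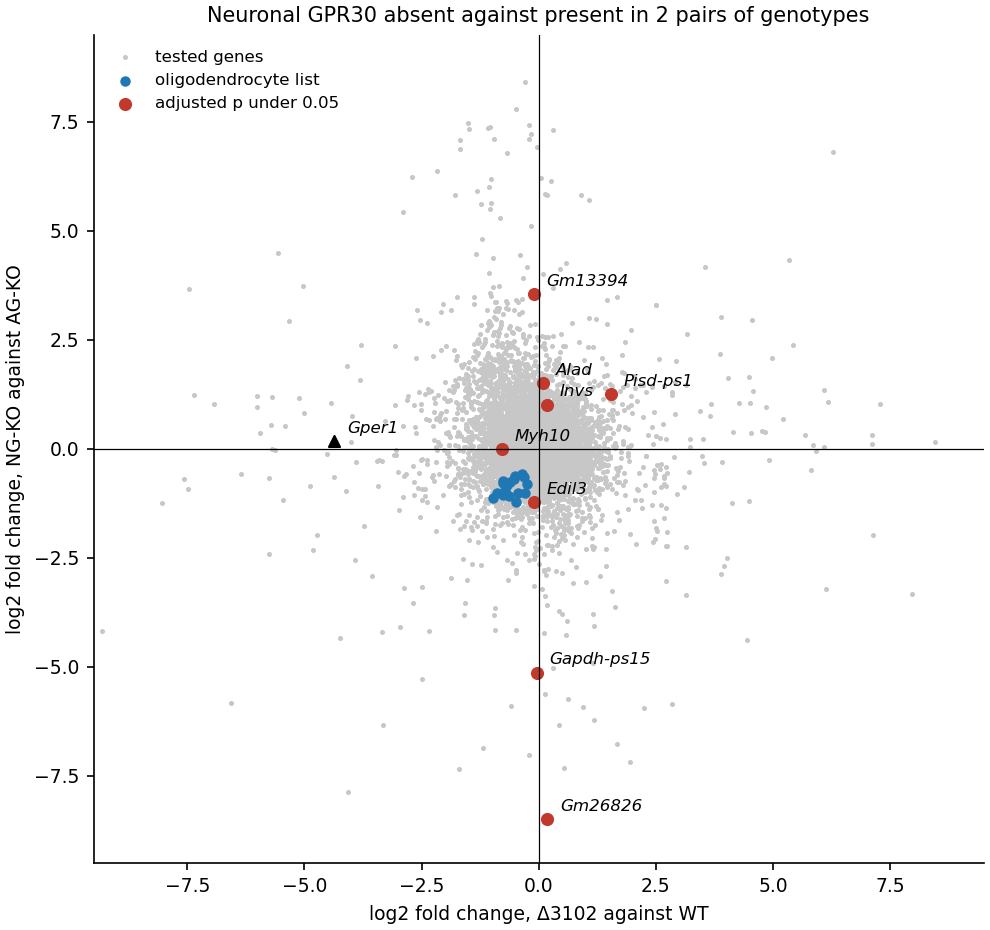
Log2 fold change of each of the 18059 tested genes in Δ3102 against WT (x axis) and NG-KO against AG-KO (y axis), with the 8 called genes in red, the 18 oligodendrocyte genes in blue and Gper1 as a triangle. Most called genes lie on an axis, Pisd-ps1 lies off both, and the oligodendrocyte genes sit together below and left of 0.

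The pairs were also read one by one. Of the tested genes, 21 (0.116%) were higher and 73 (0.404%) were lower in both pairs at an unadjusted p under 0.05 in each, while 42 (0.233%) were higher in Δ3102 and lower in NG-KO and 37 (0.205%) were the reverse. FPKM ranges of the 7 and 7 libraries lay apart for 28 genes (0.155%), 10 higher (0.0554%) and 18 lower (0.0997%), and Pisd-ps1 was the single called gene among them.

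Oligodendrocytes, the myelin-forming cells, gave the list that stood lowest. All 18 tested marker genes were lower without neuronal GPR30 at an unadjusted p under 0.05, against 4.55% of all tested genes, and none passed adjustment by edgeR (lowest adjusted p 0.23). DESeq2, the alternative tool, called 12 of the 18 at an adjusted p under 0.05, beside 0.516% of all genes it called lower. The median log2 fold change of the list was -0.75, with -0.63 in Δ3102 against WT and -0.82 in NG-KO against AG-KO, and all 18 estimates lay below 0 in both pairs. The count at an unadjusted p under 0.05 was 9 in the first pair (2.27% of all tested genes were lower there) and 18 in the other (7.3%). Summed over the list, the level was 868, 1312 and 637 FPKM in WT and 1125, 631, 949 and 766 FPKM in AG-KO. It was 669, 616 and 553 FPKM in Δ3102 and 549, 418, 569 and 400 FPKM in NG-KO. The sides overlap at WT replicate 3, AG-KO replicate 2 and Δ3102 replicate 1, and the spread is widest on the side with neuronal GPR30. Without WT replicate 2, the highest library, 16 members were lower at an unadjusted p under 0.05 and the median was -0.59.

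Among the structural proteins of myelin, Mbp, the myelin basic protein gene, had 50.4, 69.3 and 37.8 FPKM in WT, 65.3, 40.4, 77.8 and 67.9 in AG-KO, 41.2, 37.1 and 38.1 in Δ3102 and 34.4, 29.5, 34.4 and 27.6 in NG-KO, with -0.73 ± 0.16 (adjusted p = 0.23, exact permutation p = 0.00429). Its ranges overlap between the sides. Mobp, another compact-myelin protein gene, had 87.6 to 204 FPKM with and 46.2 to 90.9 FPKM without neuronal GPR30 and a log2 fold change of -0.91 ± 0.20 (adjusted p = 0.23).

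The genes of myelin lipids and of oligodendrocyte identity lay in the same range. Ugt8a, the enzyme gene that makes galactosylceramide of myelin, had -1.05 ± 0.23 (adjusted p = 0.23), the lowest of the list, and Fa2h, which hydroxylates the fatty acids of these lipids, had -0.86 ± 0.21 (adjusted p = 0.28). Aspa, the enzyme gene that splits N-acetylaspartate, had 1.18 to 1.96 FPKM with and 0.376 to 1.11 FPKM without neuronal GPR30, and was the single list member whose sides lay apart. Myrf, the transcription factor gene that switches on myelin genes, had -0.86 ± 0.22 (adjusted p = 0.32) and Sox10, the lineage factor, -0.47 ± 0.17 (adjusted p = 0.50).

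**Figure D4:**
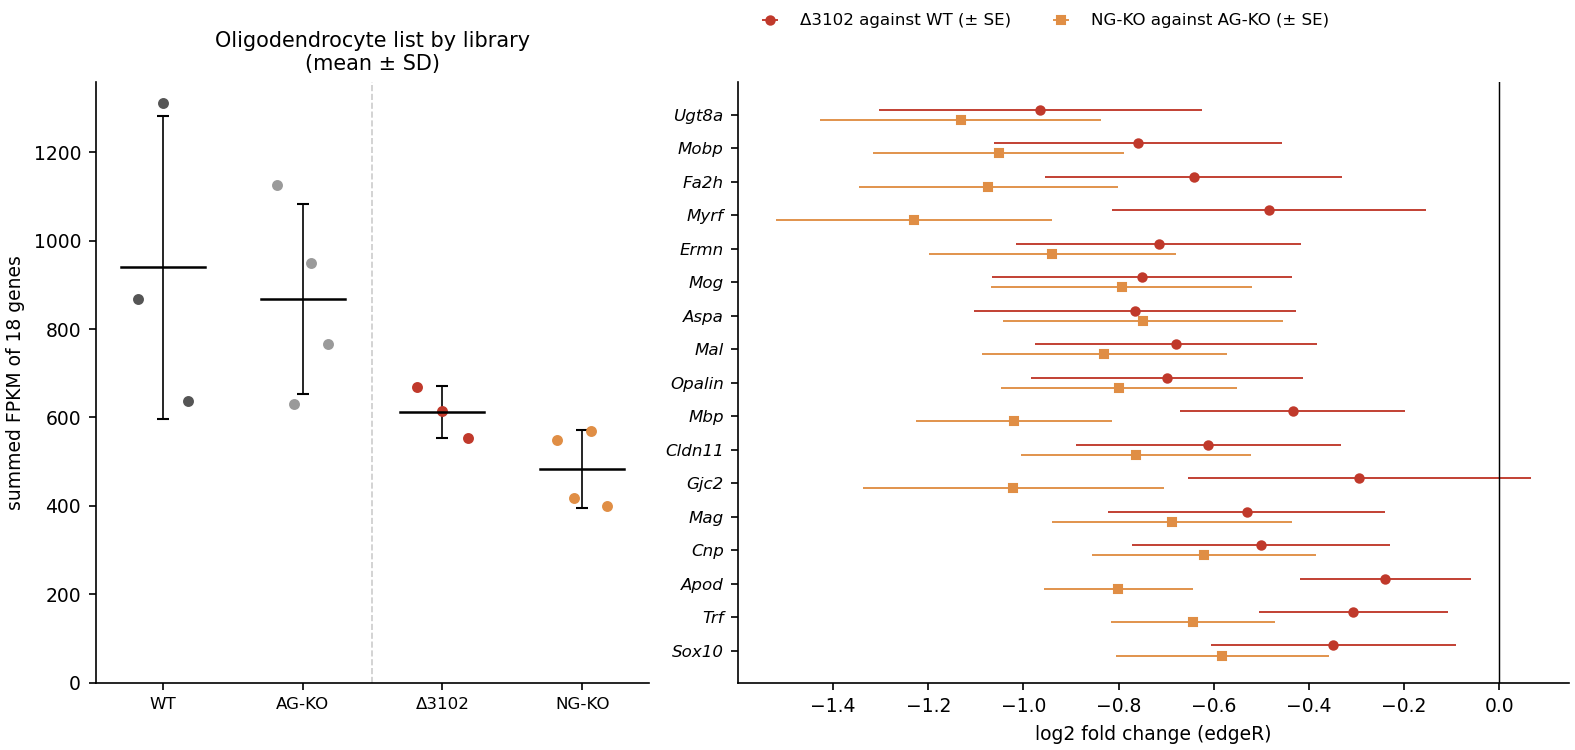
Left, summed FPKM of the 18 oligodendrocyte genes in each library, from 0, with mean ± SD. Right, log2 fold change ± SE of 17 of these genes in Δ3102 against WT (circles) and NG-KO against AG-KO (squares). All estimates drawn lie below 0, and the sums run from 631 to 1312 FPKM with and from 400 to 669 FPKM without neuronal GPR30.

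Precursors of these cells gave a smaller shift. Of 14 tested precursor genes, 6 were lower and 0 higher at an unadjusted p under 0.05, that is 42.9% of the list against 4.55% of all tested genes, with a median of -0.27 (-0.14 and -0.35 in the pairs), and none passed adjustment. The list summed to 86.9 to 113 FPKM with and 75.6 to 88.0 FPKM without neuronal GPR30. Enpp6, a marker of newly forming oligodendrocytes, had -0.98 ± 0.25 (adjusted p = 0.32) and Gpr17, a receptor of the same stage, -0.35 ± 0.09 (adjusted p = 0.28).

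Markers of tissue next to the hippocampus are given beside this result. The list of neighboring brain regions summed to 70.2 to 96.0 FPKM with and 68.5 to 92.1 FPKM without neuronal GPR30, and 1 of its 18 tested members, Lef1, was lower at an unadjusted p under 0.05. In 1 member of this list the FPKM ranges of the sides lay apart, lower without neuronal GPR30. Meningeal genes summed to 219 to 467 and 219 to 513 FPKM. Ependymal and choroid plexus genes summed to 55 to 296 and 33 to 1551 FPKM, with the highest value in Δ3102 replicate 1. Within NG-KO against AG-KO, where all 18 oligodendrocyte genes had an unadjusted p under 0.05, these markers were low as well. All 13 tested ependymal and choroid plexus genes lay below 0 in that pair, 3 of them at an unadjusted p under 0.05, with a median of -0.90 beside -0.82 for the oligodendrocyte list, and summed to 176, 55.1, 296 and 125 FPKM in AG-KO and 33.2, 71.9, 82.5 and 64.9 FPKM in NG-KO. The neighboring regions and the meninges each had a median of -0.28 in that pair, with 3 of 18 and 1 of 13 lower. In Δ3102 against WT the medians were 0.83, 0.13 and -0.16 for the ependymal, regional and meningeal lists, beside -0.63 for the oligodendrocyte list. The ependymal sums of that pair were 109.3 to 193.7 FPKM in WT and 1551 FPKM in Δ3102 replicate 1. Δ3102 replicate 2 lay within the WT range and replicate 3 below it, at 62.4 FPKM. The ependymal sums were thus not higher in all Δ3102 libraries, and how far the median of 0.83 rests on replicate 1 was not tested. The part of neighboring tissue in the oligodendrocyte result was not tested.

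Astrocyte genes lay closer to 0. Of 18 tested astrocyte genes, 4 (22.2%) were lower (Gfap, Aqp4, Sox9, Gja1) and 0 higher at an unadjusted p under 0.05. Among all tested genes, 4.55% were lower and 3.58% higher. The median of the list was -0.07, and it summed to 932 to 1058 and 912 to 1010 FPKM. In Δ3102 against WT the median was 0.02, with 12 of 18 above 0. In NG-KO against AG-KO it was -0.13, with 16 of 18 below 0. Aqp4, the water channel gene of astrocyte endfeet, had 13.9, 15.6 and 12.5 FPKM in WT, 15.7, 15.2, 16.4 and 16.6 in AG-KO, 11.2, 11.5 and 12.8 in Δ3102 and 12.6, 11.3, 11.5 and 10.8 in NG-KO. WT replicate 3 was the single library with the receptor that overlapped the other side, and the log2 fold change was -0.36 ± 0.07 (adjusted p = 0.18, exact permutation p = 0.00286). Of 28 tested genes of reactive astrocytes, 6 (21.4%) were lower and 2 (7.14%) higher at an unadjusted p under 0.05, with a median of -0.20. Vim, a filament gene that rises with Gfap in reactive cells, had -0.32 ± 0.11 (adjusted p = 0.47). Of 18 tested microglial genes, 2 were lower, Tmem119 and Tyrobp, and the median was -0.14.

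Markers of neuron types differed by list. Of 18 tested genes on the excitatory neuron list, 2 were higher, Eno2 and Syt1, and 0 lower at an unadjusted p under 0.05. The median was 0.00. Eno2 and Syt1 are genes of neurons in general, so they do not single out excitatory cells. Interneuron markers gave 1 higher and 1 lower of 23, with Kit at 0.27 and Npy at -0.16. Markers of the CA fields gave 1 lower of 20 (Pcp4) and those of the dentate gyrus 2 lower of 14 (Pdzd2, Fam163b), or 14.3%. The median was -0.04 for the CA fields and -0.16 for the dentate gyrus, the latter with -0.21 in Δ3102 against WT, where 11 of 14 lay below 0, and -0.09 in NG-KO against AG-KO. Over all tested genes the shares were 3.58% higher and 4.55% lower.

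Genes of synapses were read by list. Of 40 tested genes of vesicle release, 6 were higher and 6 lower at an unadjusted p under 0.05, 15% each way against 3.58% and 4.55% of all tested genes, with a median of -0.02. None passed adjustment. The higher ones included Syp, the vesicle protein synaptophysin, at 0.11 ± 0.04, and Syt1, the calcium sensor of release, at 0.11 ± 0.05. The lower ones included Sv2c, a vesicle glycoprotein gene, with 1.82 to 3.09 FPKM with and 1.11 to 2.21 FPKM without neuronal GPR30 (-0.63 ± 0.14, adjusted p = 0.23). Nrxn3, a presynaptic adhesion gene, had 3.31 to 8.03 FPKM with and 2.69 to 5.12 FPKM without it (-0.62 ± 0.20, adjusted p = 0.44).

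Of 35 tested glutamate receptor genes and auxiliary subunits, 1 was higher (Cacng3, 0.22 ± 0.07) and 3 were lower (Cacng4, Cacng5 and Grin2b). Grin2b, an NMDA receptor subunit gene, had 9.16 to 14.8 FPKM with and 8.23 to 11.5 FPKM without neuronal GPR30 (-0.27 ± 0.12, adjusted p = 0.58). Of 38 genes of the excitatory postsynapse, 0 were higher and 4 lower (Myh10, Shank1, Synpo and Lrrtm2), and Myh10 was the one that passed adjustment. GABA synapse genes gave 1 lower of 28 (Slc12a2), ion channels 1 higher and 2 lower of 56, and neuropeptides and neurotrophins 0 higher and 4 lower of 35. At an unadjusted p under 0.05, the shares over all tested genes were 3.58% higher and 4.55% lower. The medians of these lists lay between -0.06 and -0.01 in the neuronal contrast. They lay between 0.01 and 0.04 in Δ3102 against WT and between -0.14 and -0.06 in NG-KO against AG-KO. Of the postsynapse genes, 21 of 38 lay above 0 in the first pair. In the other pair 33 of 38 lay below 0, 6 of them at an unadjusted p under 0.05.

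Immediate early genes report recent neuronal activity. Of 34 tested, 0 were higher and 5 (14.7%) lower at an unadjusted p under 0.05 (Egr1, Arc, Nptx2, Inhba and Tiparp). Among all tested genes, 3.58% were higher and 4.55% lower. The median of the list was -0.16, with -0.05 in Δ3102 against WT and -0.37 in NG-KO against AG-KO. Arc, which acts at dendrites, had 24.7, 31.9 and 21.6 FPKM in WT, 23.2, 24.9 and 22.4 in Δ3102, 71.6, 74.8, 53.3 and 17.3 in AG-KO and 34.5, 16.3, 27.2 and 25.2 in NG-KO. The high values were those of 3 AG-KO libraries, while WT and Δ3102 overlap, and the contrast was -0.61 ± 0.26 (adjusted p = 0.58, exact permutation p = 0.106).

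**Figure D5:**
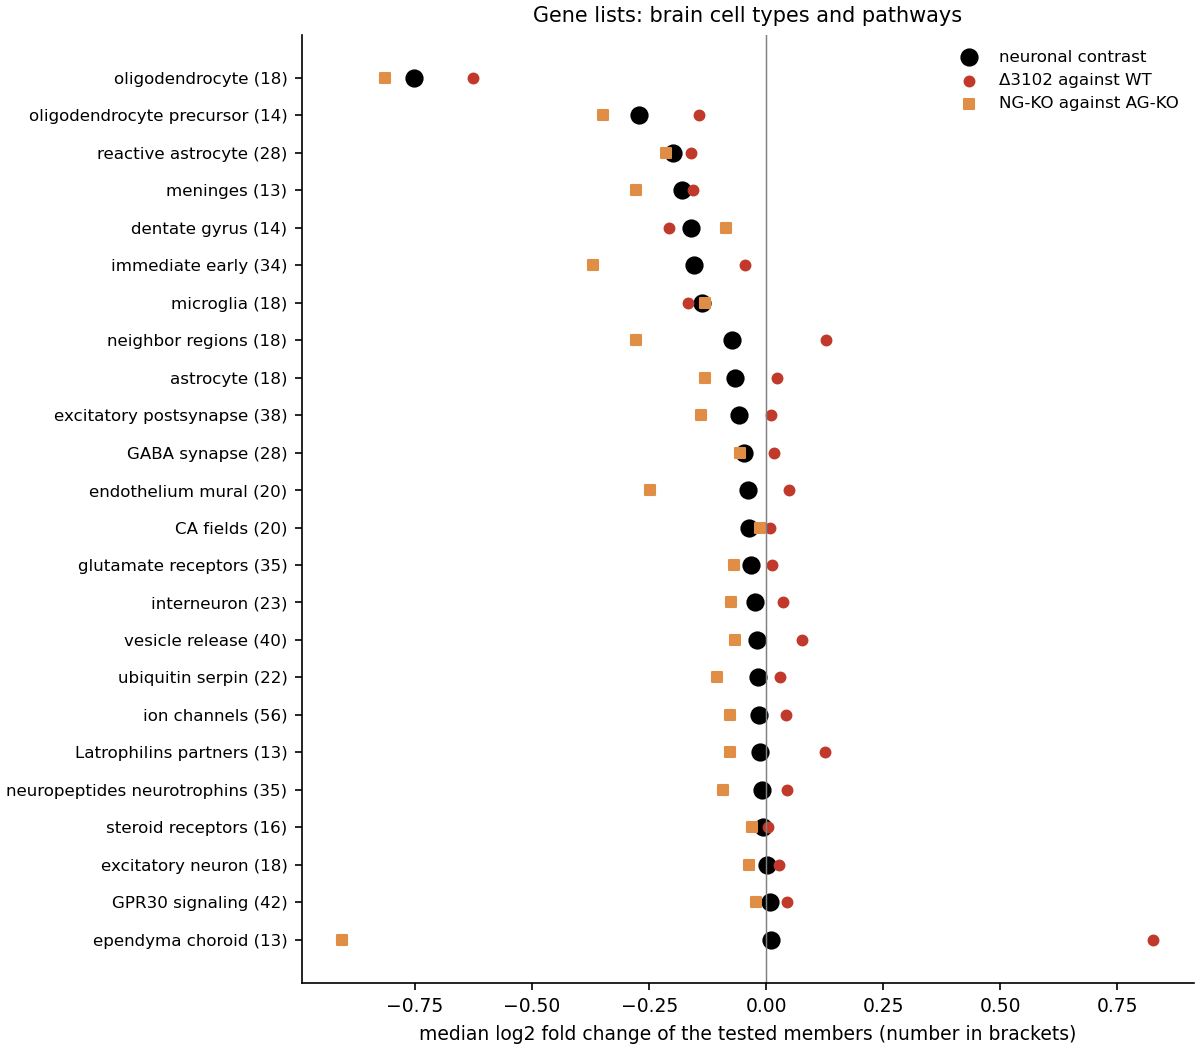
Median log2 fold change of each brain list (number of tested members in brackets) in the neuronal contrast (black), Δ3102 against WT (circles) and NG-KO against AG-KO (squares). The oligodendrocyte list lies lowest at -0.75, with both pairs on the same side, and most lists of neurons and synapses lie within 0.1 of 0.

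Of 42 tested signaling genes downstream of GPR30, 4 were higher (Adcy3, Creb1, Crem, Map2k1) and 2 lower (Prkar2b, Akt2) at an unadjusted p under 0.05. These are 9.52% and 4.76% of the list, against 3.58% and 4.55% of all tested genes, with a median of 0.01, and none passed adjustment. Creb1, the transcription factor gene of the cAMP response, had 0.411, 0.476 and 1.05 FPKM in WT, 0.437, 0.372, 1.07 and 1.87 in AG-KO, 0.764, 1.84 and 1.85 in Δ3102 and 2.09, 0.752, 1.55 and 1.51 in NG-KO. Its sides overlap, and the log2 fold change was 0.91 ± 0.40 (adjusted p = 0.60, exact permutation p = 0.0371). Adcy3, an adenylyl cyclase gene, had 8.01 to 10.9 FPKM with and 9.38 to 11.9 FPKM without neuronal GPR30 (0.22 ± 0.08, adjusted p = 0.50).

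Prkar2b, a regulatory subunit gene of protein kinase A, was low in Δ3102 (3.96 to 4.42 FPKM) and not in NG-KO (6.88 to 9.83 FPKM), and the test of that difference did not pass adjustment (adjusted p = 0.44). Of 16 tested steroid receptor and steroid synthesis genes, Pgr, the progesterone receptor gene, was higher (0.40 ± 0.16) and Gper1 and Star were lower at an unadjusted p under 0.05. Of 22 ubiquitin and serpin genes, 3 serpins were lower, with Serpinh1, a collagen chaperone gene, at -0.40 ± 0.08 (adjusted p = 0.18). Of 13 genes of latrophilins and their partners, Tenm2 was higher and Flrt2 lower. Vessel genes gave 1 higher and 2 lower of 20, and of 8 erythroid genes Hbq1a was higher. These 5 lists, in the order given, had 6.25%, 0%, 7.69%, 5% and 12.5% higher, against 3.58% of all tested genes. They had 12.5%, 13.6%, 7.69%, 10% and 0% lower, against 4.55%. The median of the vessel genes was 0.05 in Δ3102 against WT and -0.25 in NG-KO against AG-KO.

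Beyond the lists, genes with the smallest p that did not pass adjustment are given, leaving out predicted and pseudogene models. They had adjusted p from 0.18 to 0.28. Among the models left out, Gm10284 had an adjusted p of 0.051 and Gm15446 of 0.14. Among the 11 higher ones, Ube2f, a conjugating enzyme gene of the NEDD8 pathway, had 1.12 ± 0.22, with 1.08 to 3.39 FPKM with and 2.73 to 5.35 FPKM without neuronal GPR30. Map2k3, a kinase gene upstream of p38, had 0.59 ± 0.13, Mtch1, a mitochondrial outer membrane protein gene, 0.31 ± 0.07, and Arid1a, a chromatin remodeler gene, 0.79 ± 0.19. Among the 11 lower ones, Scd1, the desaturase that makes oleic acid, had 31.0 to 47.1 FPKM with and 24.0 to 31.7 FPKM without neuronal GPR30 (-0.50 ± 0.10). Efhd1, a mitochondrial calcium-binding protein gene, had 8.80 to 12.9 FPKM with and 6.79 to 9.38 FPKM without it (-0.54 ± 0.10). Ppp1r14a, a phosphatase inhibitor gene, had 6.74 to 11.4 and 4.95 to 6.71 FPKM (-0.67 ± 0.13), so that its sides just lie apart.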

How the data were processed

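Poly(A) RNA of 14 hippocampal samples was sequenced by the authors with adapters that carry molecular identifiers. The submitters' processing notes name cutadapt 1.9, HISAT2 2.0.4, StringTie 1.3.4d, UMI-tools, DESeq2, edgeR and the build GRCm38. The FPKM values are those deposited by the authors from StringTie, with 0.0001 where there is no signal. The deposited counts are whole numbers, not normalized, and the program that made them is not given in the sources used here.

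The model of the counts gave each genotype a mean of its own over all 14 libraries (edgeR 4.0.16 under R 4.3.3, TMM scaling, quasi-likelihood test). Genes with FPKM of at least 0.5 in at least 3 libraries were tested (18059 of 55450 rows, 99.7% of counts), with Benjamini-Hochberg adjustment and a two-sided threshold of 0.05. SE was derived from the fold change and its F statistic. Exact two-sided permutation tests used log2(FPKM + 0.1), exchanging labels within the pairs in 1400 ways. The labels do not state that samples of a genotype are separate mice, so p-values measure the spread between these samples. The 18 pairs of libraries within genotypes differed by more than sampling noise.

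Named genes are Gper1, Eno2, Gfap, all called genes, those with the smallest p up to 15 in each direction with FPKM of at least 1 and leaving out predicted models, up to 2 per direction in each list, up to 6 per direction that differed between the pairs, and genes that start within 1 Mb of Gper1. Others are said to have been named after their values were seen, as were members beyond these that had an unadjusted p under 0.05. The comparison, the 28 gene lists and the genes were chosen with earlier results of these data known. Lists got counts and medians, with no test. Transcripts were compared with blastn 2.17.0 in GENCODE vM21 (GRCm38), from which sequences were copied. Alternatives included DESeq2 1.42.0 and limma 3.58.1. The fits were tested on simulated data. Libraries held 44527024 to 62669865 counts. The kit marks strand, but the strand setting of counting is not given in the sources used here, so antisense partners cannot be told apart. The values of 1 oligodendrocyte gene are not reported here on their own. Plots used matplotlib 3.10.9.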

Additional observations from a re-analysis of the deposited data

Results flagged for a closer look

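A test of the difference between the pairs, Δ3102 minus WT against NG-KO minus AG-KO, passed an adjusted p under 0.05 (edgeR) for 14 of 18059 genes (0.0775%). Of these, 7 are called genes described above. The difference in log2 fold change was -3.65 for Gm13394, 5.09 for Gapdh-ps15, -1.41 for Alad, -0.79 for Myh10, 8.69 for Gm26826, 1.12 for Edil3 and -0.84 for Invs. Since Gm26826 has 0 counts in NG-KO, its value depends on the prior count of the fit. Gm10284, another Gapdh copy, had a difference of 4.33.

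The other 6 did not pass in the neuronal contrast. Pja1, a ubiquitin ligase gene, had a difference of -2.77 ± 0.40, with 56.0, 45.9 and 61.4 FPKM in WT, 19.9, 14.8 and 19.7 in Δ3102, 14.7, 22.6, 22.4 and 27.4 in AG-KO and 57.4, 61.9, 57.2 and 25 in NG-KO. It was low in Δ3102 and AG-KO, the genotypes labelled as lacking GPR30 in astrocytes, which are 1 genotype of each side. Its neuronal contrast was thus -0.20 ± 0.20 (adjusted p = 0.85). Chtop, which encodes a factor of mRNA export, had the same pattern with a difference of -0.98 ± 0.13 and 23.6 to 25.8 FPKM in WT, 16.4 to 18.5 in Δ3102, 12.6 to 16.4 in AG-KO and 18.9 to 23.1 in NG-KO. Gm15446, a predicted gene on chromosome 5, had a difference of -4.28 ± 0.44 and 0.137 to 0.28 FPKM in AG-KO against 1.07 to 4.38 FPKM elsewhere. AC102496 had a difference of 3.28, Tspan11 of -3.25 and Gm27177 of -8.27. Over 21 alternative fits, the call of the difference was lost in 0 for Gm15446, 2 for Chtop and 9 for Pja1. It was lost in 11 for AC102496, 13 for Gm10284 and 16 for Gm27177, and in 14 of 20 for Tspan11. In 30 groups of 4 samples, none had a sample far from the rest by Dixon's criterion, which flags about 1 in 20 by chance. The criterion looks for 1 far sample, so it cannot flag a split into pairs. In AG-KO, the chi-square distance per gene was 56.6 between replicates 3 and 4 and 85.5 between 1 and 2. Between these pairs it was 112 to 159. Mitochondrial transcripts took 6.74% and 7.17% of counts in replicates 3 and 4, and 3.69% and 5.19% in 1 and 2.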

How the results depend on the processing

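The neuronal contrast gave 8 calls, and 1, Pisd-ps1, with 2 means or the additive model. It gave 126 with DESeq2 (33 higher, 0.183%, and 93 lower, 0.516%, all 8 shared) and 158 with the rule of a fold above 2 or below 0.5 and an unadjusted p under 0.05. Leaving out 1 library gave 8 to 17, 17 when AG-KO replicate 2 was dropped and 12 for each of WT replicate 1, Δ3102 replicate 3 and NG-KO replicate 4. Δ3102 against WT gave 2 calls, 30 with DESeq2, 0 with only these genotypes (edgeR, 833 genes at an unadjusted p under 0.05), 212 by the fold rule and 2 to 10 leaving out a library, where dropping WT replicate 1 gave 10, dropping Δ3102 replicate 1 or 3 gave 5 and dropping NG-KO replicate 4 gave 4. NG-KO against AG-KO gave 20, 430 with DESeq2, 13 with only these genotypes, 418 by the fold rule and 13 to 297 leaving out a library, where dropping AG-KO replicate 2 gave 297, and 13 were called when either AG-KO replicate 3 or Δ3102 replicate 1 was dropped. The difference of the 2 pairs gave 14, 90 with DESeq2, 8 with limma at either pseudocount, 492 by the fold rule and 7 to 21 leaving out a library, where dropping WT replicate 3 gave 7, dropping WT replicate 2, Δ3102 replicate 2 or AG-KO replicate 4 gave 9 and dropping AG-KO replicate 2 gave 21. The causes were not tested.

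With the replicate block, counts were 6 for the neuronal contrast, 1 for Δ3102 against WT, 9 for NG-KO against AG-KO and 4 for the difference. Same-numbered libraries had correlations of deviations from -0.157 to 0.195, and 3 of 14 libraries correlated best with their own number, so the numbers were not taken to pair samples.

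Pisd-ps1 kept its call under all 23 alternatives, with log2 fold changes of 1.32 to 1.48. Of oligodendrocyte genes, 16 to 18 were lower at an unadjusted p under 0.05, with medians from -0.84 to -0.59 leaving out a library and -0.76 to -0.65 otherwise. The other 7 called genes were not called with 2 means or the additive model, and with the replicate block Edil3 and Gm26826 were not called either. Over all its 22 alternatives, Gm26826 lost its call in 13. Of 3556 values of named genes under the alternatives, 3370 stayed on their side of the threshold, 129 were lost, 57 were gained and 0 reversed. With 3 or 4 samples a genotype, small changes could go undetected, and how small was not tested.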

Other observations

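The 73 genes lower in both pairs at an unadjusted p under 0.05 in each held 9 of the 18 oligodendrocyte genes, against 0 of the 21 that were higher in both. Others of the 73, named after their values were seen, included Adamts4 (-1.04 ± 0.25), a protease gene, Elovl1 (-0.53 ± 0.12), an elongase of long-chain fatty acids, Gsn (-0.57 ± 0.12), the actin-severing protein gelsolin, and the receptor genes Lpar1 (-0.63 ± 0.15) and S1pr5 (-0.65 ± 0.18). The values in brackets are log2 fold changes ± SE of the neuronal contrast, and none of these genes passed adjustment. Among the 21 higher ones were Dnm1 (0.16 ± 0.04), which encodes the dynamin of synaptic vesicle uptake, Madd (0.15 ± 0.04), a Rab exchange factor gene, Igsf8 (0.30 ± 0.07), a cell surface protein gene, and Ppia (0.45 ± 0.12), cyclophilin A.

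The 28 genes whose 7 and 7 libraries did not overlap (0.155% of those tested) are illustrated by examples picked after their values were seen. Sp7, a transcription factor gene, had 0.416 to 0.884 FPKM with and 0.0817 to 0.382 FPKM without neuronal GPR30, and Zic1, another, had 2.12 to 8.05 and 1.36 to 2.08 FPKM. Unc5b, a netrin receptor gene, had 4.09 to 6.04 and 2.84 to 3.89 FPKM. Ndufa12 and Cox14, mitochondrial respiratory chain genes, were on the other side, with 27.0 to 37.6 and 38.1 to 43.2 FPKM for Ndufa12 and 39.3 to 48.1 and 49.8 to 57.4 FPKM for Cox14.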
